A study of Mus musculus with 18 samples.

Results

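The genes described here are 8 members of the pathway that joins inflammatory caspases to release of the IL-1 cytokines: Casp1, Casp4, Casp8, Gsdmd, Pycard, Il1a, Il1b and Il18. They are 8 of the 24421 genes in the count table of a study of mouse 4T1 breast carcinoma cells and their descendants resistant to the HSP90 inhibitor 17-DMAG. The members were chosen by gene symbol, with other results from these libraries already known. Measured counts entered the choice only in deciding which comparisons are given as bounds: where every library of a group held at most 3 counts of a gene, the fold is a lower bound and carries no test.

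RNA was sequenced from 3 cell populations: parental 4T1, and 4T1R1 and 4T1R2, each obtained independently from 4T1 by repeated exposure to 17-DMAG and regrowth of the survivors. Each was sequenced without treatment and after 1.5 µM 17-DMAG for 48 h, which makes 6 groups of 3 libraries. The 48 h stand in the sample records, whereas the series' design text gives a much shorter exposure, so the length of treatment is uncertain. All groups carry the same genotype label, wild type, and the strain label BALB/cfC3H. The 3 populations are cultured cells grown without other cell types, and 4T1R1 and 4T1R2 are populations of survivors rather than clones, 1 population each, so differences between 4T1 and a resistant population rest on a single selection in each case. The design text calls the 3 libraries of a group biological replicates without saying how the cultures were separated.

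In background terms, caspase-1 is activated on inflammasomes, complexes of a sensor protein, the adaptor ASC (the product of Pycard) and procaspase-1. It cuts the precursors of IL-1β and IL-18 into their active forms. Mouse caspase-11, the product of the gene named Casp4, binds bacterial lipopolysaccharide in the cytosol. Both caspases cut gasdermin D, the product of Gsdmd, whose released fragment forms pores in the plasma membrane through which cytokines leave the cell and which can end in lytic death, pyroptosis. Caspase-8 starts apoptosis downstream of death receptors, restrains necroptosis and can also cut IL-1β and gasdermin D. IL-1α, the product of Il1a, is active as its precursor and acts as an alarm signal when cells are damaged. The pathway is best known in myeloid cells, although epithelial and carcinoma cells express several of its parts. The libraries measure RNA, and cleavage of caspases, gasdermin or cytokines was not measured.

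Casp1 and Casp4 are neighbors on chromosome 9 of the GRCm38 assembly (GENCODE vM21 positions, plus strand): Casp1 spans 5298517 to 5307265 and Casp4 spans 5308828 to 5336783, a gap of 1563 bp. Il1a (129299610 to 129309972) and Il1b (129364570 to 129371139) lie on the minus strand of chromosome 2 with 54598 bp between them. Casp8 lies on chromosome 1 from 58795374 to 58847503, Gsdmd on chromosome 15 from 75862327 to 75867408, Pycard on chromosome 7 from 127989708 to 127993867 and Il18 on chromosome 9 from 50554827 to 50581840. RefSeq windows of GRCm38.p6 were matched by symbol for 7 of the 8 members, Gsdmd having none. The 250 bases before the annotated start are shown for the 2 neighboring pairs, because both members of each pair were higher in the resistant populations, and the windows are where shared control elements would be looked for. Casp1 covers chr9:5298267-5298516 and Casp4 covers chr9:5308599-5308848, both on the plus strand. Il1a covers chr2:129309973-129310222 and Il1b covers chr2:129371140-129371389, both on the minus strand. The lines read 5′ to 3′ on the gene's strand, and capitals mark the TATA box letters TATAAA in Il1a and Il1b and matches to the NF-kappaB consensus in Casp4:
Casp1: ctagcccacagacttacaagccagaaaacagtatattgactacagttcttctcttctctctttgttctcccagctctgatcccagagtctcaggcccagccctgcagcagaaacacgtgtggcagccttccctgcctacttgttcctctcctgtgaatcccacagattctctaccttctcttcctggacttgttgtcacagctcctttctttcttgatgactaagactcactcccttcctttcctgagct
Casp4: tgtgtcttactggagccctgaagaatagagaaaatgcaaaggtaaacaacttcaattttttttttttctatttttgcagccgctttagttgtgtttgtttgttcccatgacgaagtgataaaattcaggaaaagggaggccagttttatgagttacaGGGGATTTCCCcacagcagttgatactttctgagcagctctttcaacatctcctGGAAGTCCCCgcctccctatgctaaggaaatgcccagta
Il1a: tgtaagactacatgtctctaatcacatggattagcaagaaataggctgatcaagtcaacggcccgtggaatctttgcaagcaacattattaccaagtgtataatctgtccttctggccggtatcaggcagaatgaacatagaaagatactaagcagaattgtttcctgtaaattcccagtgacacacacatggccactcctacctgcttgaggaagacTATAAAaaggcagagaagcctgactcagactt
Il1b: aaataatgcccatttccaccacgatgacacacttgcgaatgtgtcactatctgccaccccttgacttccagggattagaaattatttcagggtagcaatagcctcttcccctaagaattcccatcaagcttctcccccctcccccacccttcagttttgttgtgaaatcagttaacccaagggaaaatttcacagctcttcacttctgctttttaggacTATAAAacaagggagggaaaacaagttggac

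TATAAA, the letters of the core promoter element that positions transcription starts, and the consensus of NF-kappaB, a transcription factor of inflammatory genes, were added to the search after the windows were read. TATAAA lay at 32 to 27 bases before the start of Il1a and at 31 to 26 bases before that of Il1b, on the gene's strand. It was found on either strand in 12.4% of the 32841 windows of this length. The Il18 window held these letters on the opposite strand, 175 to 170 bases before the start, and the Casp1 and Casp4 windows did not hold them. That Il18 window ends at 50554699, before the GENCODE start of the gene, and the bases just after it matched no GENCODE transcript of Il18. The Casp8 window (chr1:58802252-58802501) lies inside the GENCODE span of its gene. For these 2 genes, matches and their absence therefore depend on which start is used. The NF-kappaB consensus matched the Casp4 window in 2 overlapping places, 93 to 84 and 92 to 83 bases before the start on the gene's strand, and once on the opposite strand at 39 to 30 bases. From a second RefSeq start of Casp4, the same matches lay at 104 to 95, 103 to 94 and 50 to 41 bases. No window of the other 6 members searched held the NF-kappaB consensus, which was found on either strand in 5.00% of all windows. A further 4 patterns were searched on both strands of the windows of the 7 members. These included GGANNTTCC, another set of NF-kappaB letters (in 3.59% of all windows), and GAAANNGAA for the interferon-stimulated response element (7.13%). They also included TTCNNNGAA for the STAT-binding GAS element (7.02%) and GAANNTTC for the heat shock element (6.70%). GAAANNGAA can overlap GAANNTTC and TTCNNNGAA where their letters coincide. None of these 4 letter patterns occurred in the windows of the 7 members, which says only that these letters are not in these 250 bases of the reference. A match is likewise only a match of letters. The reference is C57BL/6J, not the strain of the 4T1 cells.

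Totals ran from 23354461 to 55094630 counts per library with a median of 30747713.5. Replicates 1 and 2 of 17-DMAG-treated 4T1 agreed within sampling noise (chi-square per gene 1.10, against 2.04 to 2.22 for the other 17 pairs of replicates), so their counts were averaged and counted as 1 sample. Mates of a pair were mostly counted separately, which raises the chi-square, so the other pairs need not exceed sampling noise. The averaged pair was the most alike of all. Averaging left 17 libraries in the fit, 2 for treated 4T1 (n = 2) and 3 for each other group (n = 3). The library names of 4T1R1 belong to a separate series from those of 4T1 and 4T1R2. For 4T1R1 against either other population, population and library series therefore cannot be told apart, and the same holds for the difference of 17-DMAG response between 4T1R1 and 4T1. The comparison of 4T1R2 with 4T1, their difference of response and each 17-DMAG comparison within a population lie within 1 series. Levels are given as CPM, counts scaled by TMM to a common library size. Changes are log2FC with a standard error (SE) and an adjusted p from edgeR's quasi-likelihood test over 13507 genes. A gene is said to have risen or fallen where its adjusted p was below 0.05. Markers of mammary epithelium (Epcam, Cdh1 and keratins, 6 of 6 above 3 counts in a library of every group) summed to 1658 CPM or more in every library.

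Before any treatment, Casp1, Casp4, Gsdmd, Pycard and Il1a were higher in both resistant populations than in 4T1. Casp8 rose in 4T1R1 and fell in 4T1R2, Il18 passed the test in neither, and Il1b is given as a bound. In 4T1R1, 6 of the 7 members tested rose and 0 fell (0 also at an unadjusted p below 0.05 and by DESeq2), against 25.2% of all genes tested that rose and 27.5% that fell. In 4T1R2, 5 of 7 rose and 1 fell, against 25.6% and 26.9%. The median log2FC of the members was 0.69 in 4T1R1 and 0.40 in 4T1R2, beside medians over all genes tested of 0.0075 and 0.0068. The 2 comparisons share the untreated 4T1 libraries. The members were chosen with results known, so these shares only describe them.

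**Figure D1:**
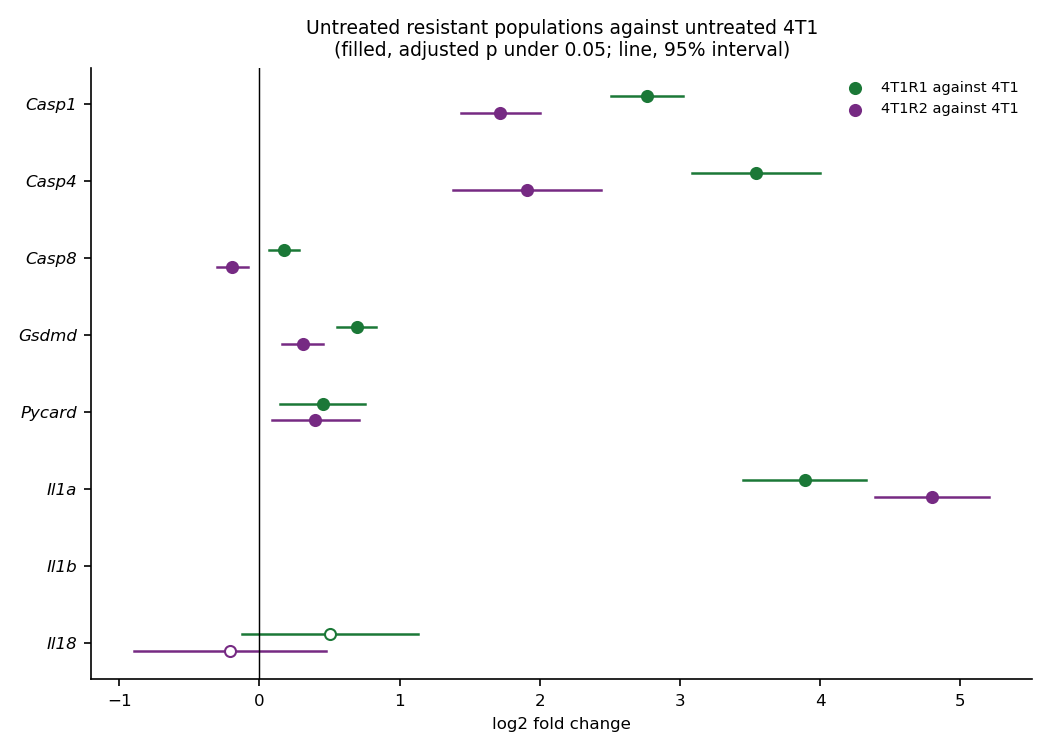
The horizontal axis is the log2FC of untreated 4T1R1 (green) or 4T1R2 (purple) against untreated 4T1, and each row is a gene. Points are fitted values, lines are 95% intervals and filled points passed the adjusted p threshold of 0.05. Il1a and Casp4 lie farthest to the right, Casp8 lies on opposite sides of 0 in the 2 populations, and Il1b is not drawn because 4T1 was at the floor.

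Casp1 stood at 2.47, 1.90 and 1.98 CPM in the 3 untreated 4T1 libraries. In 4T1R1 it stood at 16.7, 13.3 and 13.3 CPM, and in 4T1R2 at 7.46, 6.48 and 6.91 CPM. The 3 populations did not overlap, and 4T1R1 was the highest. Casp1 rose 6.81-fold in 4T1R1 (log2FC 2.77, SE 0.127, adjusted p 1.21e-21) and 3.29-fold in 4T1R2 (log2FC 1.72, SE 0.139, adjusted p 7.78e-14). The resistant populations differed from each other, with Casp1 lower in 4T1R2 than in 4T1R1 by log2FC -1.05 (SE 0.107, adjusted p 1.41e-10).

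Casp4, which encodes the sensor of cytosolic lipopolysaccharide, showed the same order of populations from a lower base. The untreated 4T1 libraries held 21, 18 and 15 counts, or 0.702, 0.621 and 0.472 CPM. In 4T1R1 the values were 8.05, 6.50 and 6.45 CPM, and in 4T1R2 they were 2.82, 1.64 and 2.19 CPM. Again no library of one population reached into the range of another. Casp4 rose 11.7-fold in 4T1R1 (log2FC 3.54, SE 0.227, adjusted p 6.45e-17) and 3.76-fold in 4T1R2 (log2FC 1.91, SE 0.261, adjusted p 5.41e-08). It was lower in 4T1R2 than in 4T1R1 by log2FC -1.63 (SE 0.185, adjusted p 1.85e-09).

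Casp8, the caspase of death receptor signaling, was the most abundant member and moved little. It stood at 42.5, 41.1 and 40.0 CPM in untreated 4T1, at 46.1, 48.4 and 45.2 CPM in 4T1R1 and at 37.4, 36.6 and 33.9 CPM in 4T1R2. The 3 populations did not overlap, but the steps between them were small. Casp8 rose in 4T1R1 by log2FC 0.18 (SE 0.0532, adjusted p 0.00482) and fell in 4T1R2 by log2FC -0.19 (SE 0.0551, adjusted p 0.00317), so its direction was opposite in the 2 resistant populations, which differed from each other by log2FC -0.37 (SE 0.0544, adjusted p 5.26e-07).

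Gsdmd, the pore-forming target of caspase-1 and caspase-11, was measured at 19.3, 18.7 and 19.6 CPM in untreated 4T1. It was measured at 30.5, 29.6 and 32.9 CPM in 4T1R1 and at 23.3, 26.5 and 21.5 CPM in 4T1R2. Each resistant library was above each 4T1 library, and 4T1R1 was above 4T1R2. Gsdmd rose 1.62-fold in 4T1R1 (log2FC 0.69, SE 0.0695, adjusted p 3.29e-11) and 1.24-fold in 4T1R2 (log2FC 0.31, SE 0.0720, adjusted p 0.000393), and it was lower in 4T1R2 than in 4T1R1 by log2FC -0.39 (SE 0.0687, adjusted p 1.57e-05).

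Pycard, the adaptor that links sensors to procaspase-1, showed a smaller and less certain rise. The untreated 4T1 libraries held 4.01, 3.73 and 4.06 CPM, the 4T1R1 libraries 4.81, 5.72 and 5.61 CPM and the 4T1R2 libraries 4.15, 6.15 and 5.44 CPM. The lowest 4T1R2 library lay just above the highest 4T1 library. Pycard rose 1.37-fold in 4T1R1 (log2FC 0.45, SE 0.150, adjusted p 0.0108) and 1.32-fold in 4T1R2 (log2FC 0.40, SE 0.154, adjusted p 0.0266). The second call was lost without untreated 4T1 replicate 2 (adjusted p 0.0784), 4T1R2 replicate 2 (0.179) or 4T1R2 replicate 3 (0.0773). Between the resistant populations the difference was -0.05 with a 95% interval of -0.35 to 0.25.

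Il1a had the largest fitted changes among the members tested. Untreated 4T1 held 9, 7 and 15 counts, or 0.301, 0.242 and 0.472 CPM. The level reached 4.66, 5.19 and 5.52 CPM in 4T1R1 and 9.17, 9.73 and 10.0 CPM in 4T1R2. Here 4T1R2, not 4T1R1, was the highest population. Il1a rose 14.8-fold in 4T1R1 (log2FC 3.89, SE 0.217, adjusted p 7.37e-19) and 27.8-fold in 4T1R2 (log2FC 4.80, SE 0.202, adjusted p 6.29e-23). It was the single member called higher in 4T1R2 than in 4T1R1, by log2FC 0.91 (SE 0.128, adjusted p 2.30e-07). A partly overlapping transcript on the other strand, Gm14023, held 2 to 10 counts in untreated 4T1, 7 to 15 in 4T1R1 and 16 to 21 in 4T1R2. Because the use of strand in counting is not given in the sources used here, the reads of such pairs cannot be told apart.

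Il1b was near the detection limit in 4T1 and low in the resistant populations. The untreated 4T1 libraries held 0, 2 and 2 counts, the 4T1R1 libraries 12, 11 and 23 counts and the 4T1R2 libraries 11, 14 and 20 counts. On the CPM scale the means were 0.479 ± 0.182 (SD, n = 3) in 4T1R1 and 0.562 ± 0.209 (SD, n = 3) in 4T1R2. Set against a floor of 3 counts per library in 4T1, the mean level of Il1b in 4T1R1 was at least 4.83-fold higher. The same bound for 4T1R2 was at least 5.66-fold higher. Both bounds use the observed mean of the resistant libraries and leave out its spread. The lowest library held 0.370 CPM in 4T1R1 and 0.341 CPM in 4T1R2. Between the resistant populations the log2FC was 0.19 with a 95% interval of -0.74 to 1.13 (adjusted p 0.783). The antisense gene Il1bos held 0 to 4 counts in untreated 4T1, 3 to 7 in 4T1R1 and 6 to 8 in 4T1R2, so it moved with Il1b at counts of the same order. Its part in the Il1b result was not tested.

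Il18, the other cytokine cut by caspase-1, did not pass the test in either resistant population. Untreated 4T1 held 0.702, 1.10 and 1.07 CPM, 4T1R1 held 1.67, 0.909 and 1.50 CPM and 4T1R2 held 1.08, 0.884 and 0.491 CPM. The 3 populations overlapped. The log2FC was 0.51 in 4T1R1 (95% interval -0.12 to 1.13, adjusted p 0.174) and -0.21 in 4T1R2 (95% interval -0.89 to 0.47, adjusted p 0.629), intervals that still allow a moderate change in either population. Between 4T1R2 and 4T1R1 the value was -0.72 with an adjusted p of 0.0757, and it passed the threshold without 4T1R1 replicate 2 (adjusted p 0.0300), without 4T1R2 replicate 1 (0.0398) or with a minimum of 10 counts in every library (0.0492). Bco2, which overlaps Il18 on the opposite strand, held 2 to 41 counts per library over all groups, beside 13 to 68 counts of Il18.

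Directly compared without treatment, 4T1R2 was lower than 4T1R1 for 4 of the 8 members (Casp1, Casp4, Casp8 and Gsdmd) and higher for 1 (Il1a), against 19.0% of all genes tested that were lower and 19.7% that were higher. The members' median log2FC was -0.38, beside -0.0079 over all genes tested. The RNA of Casp1, Casp4, Casp8 and Gsdmd was thus highest in 4T1R1, and that of Il1a was highest in 4T1R2. These are comparisons across the 2 library series.

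**Figure D2:**
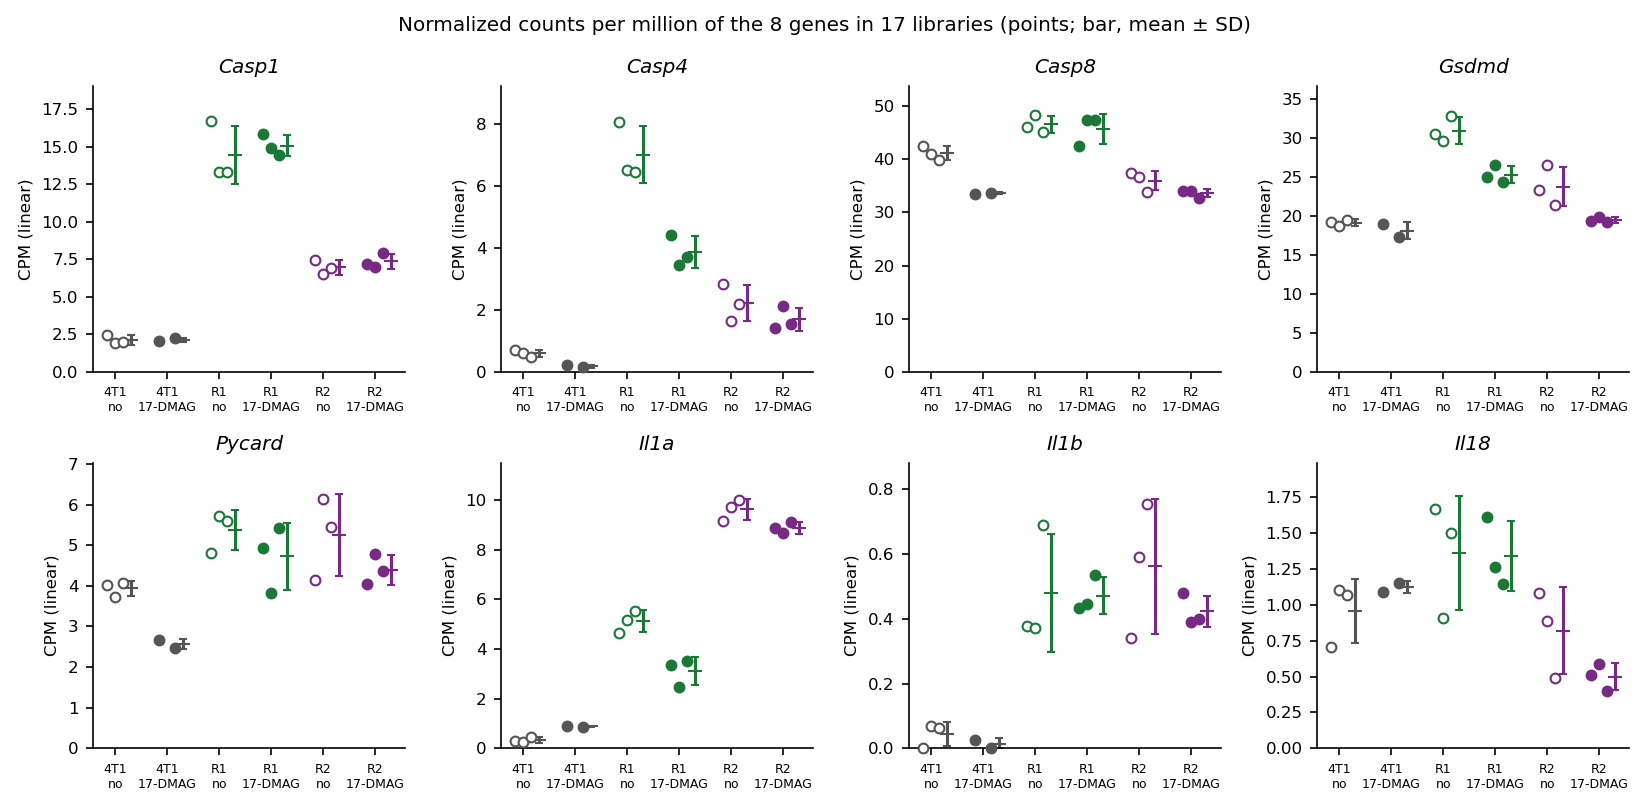
Each panel plots the CPM (linear scale from 0) of a gene in the 17 libraries, with open points for untreated and filled points for 17-DMAG-treated cells and bars for the mean ± SD. R1 and R2 stand for 4T1R1 and 4T1R2. Casp1 and Casp4 are highest in 4T1R1, Il1a is highest in 4T1R2, and the points of Il18 overlap between neighboring groups.

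The leukocyte markers, taken as a sum, were higher in both untreated resistant populations than in untreated 4T1. Their 10 genes summed to 12.6 to 14.7 CPM in untreated 4T1, 24.4 to 27.7 CPM in 4T1R1 and 29.4 to 31.7 CPM in 4T1R2. Most of that sum was Cd14 (means of 7.84, 18.8 and 22.7 CPM in 4T1, 4T1R1 and 4T1R2) and Cd68 (4.73, 6.55 and 5.99 CPM). The pan-leukocyte gene Ptprc (CD45) stood at 0.482 CPM in 4T1, 0.189 CPM in 4T1R1 and 0.331 CPM in 4T1R2, so it was not higher in the resistant populations. The macrophage gene Adgre1 was at 0 in every untreated library, and 5 of the 10 markers were at 0 in all untreated 4T1 libraries, against 2 in 4T1R1 and 2 in 4T1R2. The 8 fibroblast and endothelial markers summed to 22.4 to 25.3 CPM in 4T1, 27.7 to 29.1 CPM in 4T1R1 and 29.9 to 33.8 CPM in 4T1R2. Most of that sum was a single gene, Pdgfra (means of 23.0, 27.3 and 31.5 CPM in 4T1, 4T1R1 and 4T1R2). The rest had means of at most 0.549 CPM, and among them Col1a2 went the other way (0.455, 0.332 and 0.198 CPM). The epithelial sum ran from 2469 to 2504 CPM in 4T1, from 1658 to 1741 CPM in 4T1R1 and from 1916 to 1956 CPM in 4T1R2. Epcam and the keratins had lower means in both resistant populations than in 4T1. Cdh1 did not, with means of 360 CPM in 4T1, 363 CPM in 4T1R1 and 435 CPM in 4T1R2. The part of these differences in the members' results was not tested. In bulk libraries, fewer cells of a kind and less RNA per cell cannot be told apart.

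Per kilobase of exon, the members spanned a wide range within a library. In untreated 4T1R1 the means were 16.1 ± 0.575 CPM per kb for Casp8, 13.0 ± 0.710 for Gsdmd and 9.65 ± 1.30 for Casp1 (SD, n = 3). Il1a followed at 2.59 ± 0.220 CPM per kb, Casp4 at 1.89 ± 0.246, Pycard at 1.42 ± 0.130, Il18 at 1.32 ± 0.386 and Il1b at 0.251 ± 0.0956. Pycard and Il18 did not differ beyond their spread. In untreated 4T1 the order below Casp8 (14.2 CPM per kb), Gsdmd (8.07) and Casp1 (1.42) was Pycard at 1.04, Il18 at 0.930, Il1a at 0.171, Casp4 at 0.161 and Il1b at 0.0231 CPM per kb, and Il1a and Casp4 did not differ beyond their spread. The place of Casp4 depends on its length. Over the 1435 bases of its RefSeq-paired transcript instead of 3710 bases of all exons, its level in untreated 4T1R1 was 4.88 CPM per kb, above that of Il1a. In untreated 4T1 the same length gave Casp4 0.417 CPM per kb, above the 0.171 of Il1a. Over its own RefSeq-paired length, Il18 stood at 1.12 CPM per kb in untreated 4T1, beside 1.04 for Pycard. Casp8 and Gsdmd were thus the highest members per length in 4T1 as in 4T1R1, whereas Il1a, Casp4 and Il1b were the lowest in 4T1.

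**Figure D3:**
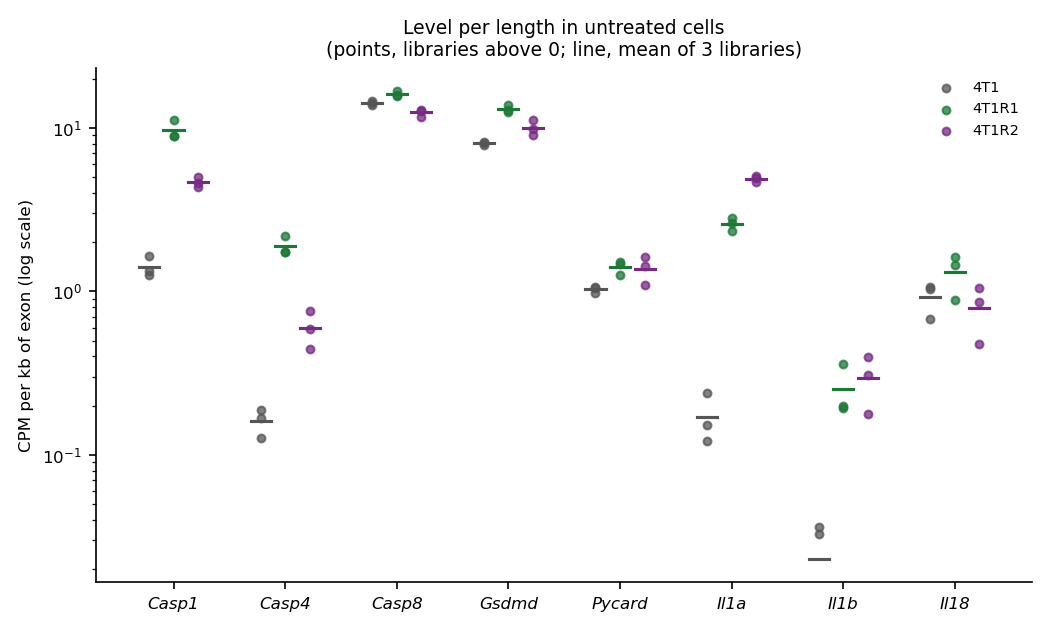
The vertical axis is the level of each gene in CPM per kb of exon on a log scale, in the 3 untreated populations, with points for libraries above 0 and a line for the mean of 3 libraries. Casp8 and Gsdmd are high in all 3 populations, and Casp4, Il1a and Il1b are more than 1 order of magnitude lower than those in 4T1.

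With 17-DMAG, Casp4 fell in 4T1 and 4T1R1, Gsdmd fell in 4T1R1 and 4T1R2, and Il1a rose in 4T1 and fell in 4T1R1. In 4T1, 1 of the 7 members tested rose (Il1a) and 3 fell (Casp4, Casp8 and Pycard), against 18.4% and 17.9% of all genes tested. In 4T1R1, 0 of 8 rose and 3 fell (Casp4, Gsdmd and Il1a), against 13.9% and 14.3%. In 4T1R2, 0 of 8 rose and 1 fell (Gsdmd), against 6.18% and 4.35%. The count of members that rose in 4T1R1 and in 4T1R2 was 0 with edgeR's adjusted p, 0 at an unadjusted p below 0.05 and 0 with DESeq2. The leukocyte markers summed to 11.2 to 12.8 CPM in treated 4T1, 20.1 to 22.9 CPM in treated 4T1R1 and 25.5 to 27.4 CPM in treated 4T1R2, and the fibroblast and endothelial markers to 13.1 to 13.7, 23.1 to 25.5 and 25.9 to 29.5 CPM. These ranges lay below those of the untreated libraries, except for the leukocyte sum in 4T1, which overlapped, and their part in these results was not tested. Pdgfra again made up most of the fibroblast and endothelial sum, with treated means of 12.5, 23.0 and 27.1 CPM in 4T1, 4T1R1 and 4T1R2. Cd14 had the largest fall among the leukocyte markers, with untreated means of 7.84, 18.8 and 22.7 CPM in 4T1, 4T1R1 and 4T1R2. Its treated means were 5.54, 13.95 and 18.8 CPM. Cd68 had treated means of 5.42, 6.25 and 5.95 CPM, beside 4.73, 6.55 and 5.99 CPM untreated, so its mean was higher in treated 4T1. The other leukocyte markers had means of at most 0.987 CPM.

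**Figure D4:**
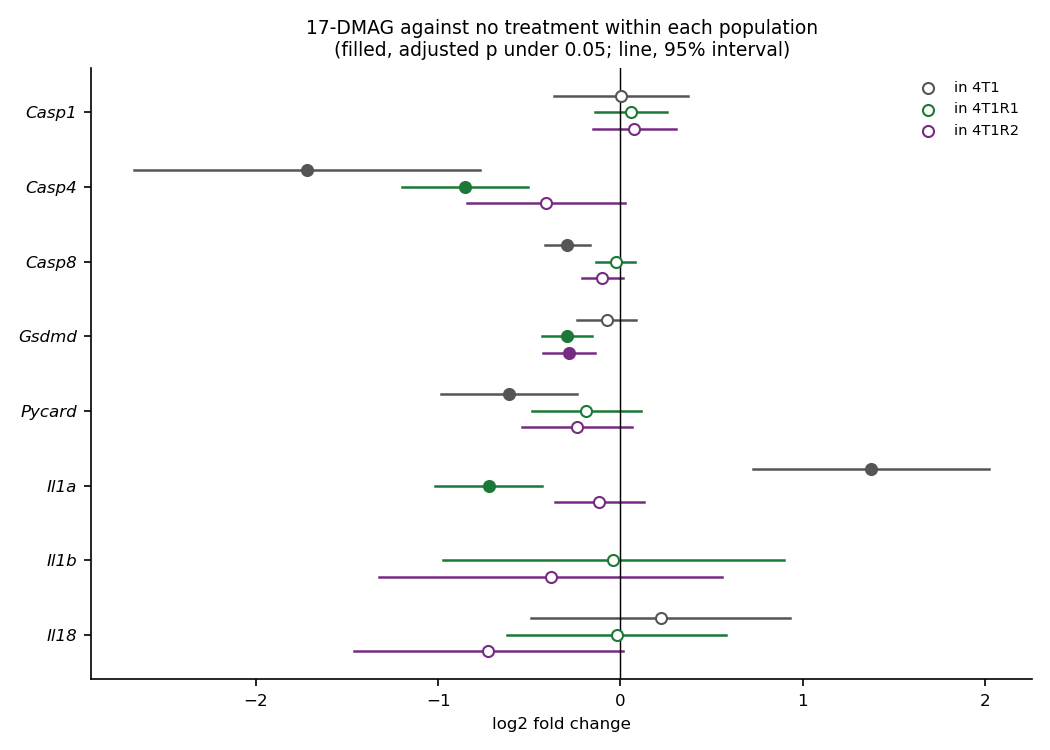
The horizontal axis is the log2FC of 17-DMAG against no treatment within 4T1 (gray), 4T1R1 (green) and 4T1R2 (purple). Points are fitted values, lines are 95% intervals and filled points passed the adjusted p threshold of 0.05. Il1a lies to the right of 0 in 4T1 and to the left in 4T1R1, and Casp1 lies near 0 in all 3.

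Il1a showed the clearest contrast between populations. In 4T1 it went from 0.301, 0.242 and 0.472 CPM to 0.909 and 0.872 CPM, the first treated value being the mean of replicates 1 and 2, and no treated library overlapped the untreated ones. This was a 2.59-fold rise (log2FC 1.38, SE 0.321, adjusted p 0.000625). In 4T1R1 the treated libraries held 3.34, 2.46 and 3.50 CPM, all below the untreated ones, and Il1a fell by log2FC -0.72 (SE 0.145, adjusted p 0.000165). In 4T1R2 the treated libraries held 8.86, 8.66 and 9.12 CPM, also below the untreated ones, and the log2FC was -0.12 with a 95% interval of -0.36 to 0.13. Even after treatment, 4T1 held less Il1a than either resistant population held without it.

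Tested directly, the response of Il1a differed from that of 4T1 by log2FC -2.10 in 4T1R1 (SE 0.352, adjusted p 1.98e-05) and by -1.49 in 4T1R2 (SE 0.343, adjusted p 0.00134). The comparisons share the 4T1 libraries. Of 7 members tested for a difference in response between 4T1R1 and 4T1, 1 differed upward (Casp8) and 1 downward (Il1a), against 9.16% and 9.08% of all genes tested. Between 4T1R2 and 4T1, 0 differed upward (2 at an unadjusted p below 0.05, 0 by DESeq2) and 1 differed downward (Il1a), against 9.62% and 8.16%. For most members a difference in response was thus not detected, and the intervals of several remained wide.

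Casp4 fell with 17-DMAG in 4T1 and 4T1R1. In 4T1 the treated libraries held 2, 14 and 4 counts, where the library with 14 counts is the deepest of all. The treated values of 0.208 and 0.139 CPM lay below the 3 untreated ones, and the log2FC was -1.72 (SE 0.470, adjusted p 0.00321). Without treated 4T1 replicate 2 it was -2.41. In 4T1R1 the treated libraries held 4.43, 3.45 and 3.72 CPM, below the untreated 6.45 to 8.05 CPM, and Casp4 fell by log2FC -0.85 (SE 0.171, adjusted p 0.000165). In 4T1R2 the treated libraries held 1.41, 2.12 and 1.54 CPM and overlapped the untreated ones, with a log2FC of -0.41 (95% interval -0.84 to 0.02). The difference in response from 4T1 was 0.87 in 4T1R1 (adjusted p 0.273) and 1.31 in 4T1R2 (adjusted p 0.0809), and the second passed the threshold without treated 4T1 replicate 2 (adjusted p 0.0195) or without untreated 4T1R2 replicate 1 (0.0401).

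Casp1, its neighbor, did not follow Casp4 under treatment. The treated libraries held 2.04 and 2.23 CPM in 4T1, 15.8, 14.9 and 14.4 CPM in 4T1R1 and 7.18, 6.99 and 7.92 CPM in 4T1R2, and treated and untreated libraries overlapped in every population. The 95% interval of the log2FC was -0.36 to 0.37 in 4T1, -0.14 to 0.26 in 4T1R1 and -0.15 to 0.31 in 4T1R2. The differences between populations in Casp1 were accordingly present with and without the drug.

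Casp8 fell in 4T1 from between 40.0 and 42.5 CPM to 33.5 and 33.7 CPM (log2FC -0.29, SE 0.0612, adjusted p 0.000156). In 4T1R1 the treated libraries held 42.5, 47.4 and 47.3 CPM (log2FC -0.03, 95% interval -0.13 to 0.08) and in 4T1R2 they held 34.0, 34.1 and 32.7 CPM (log2FC -0.10, 95% interval -0.21 to 0.01). Treated and untreated libraries of Casp8 did not overlap in 4T1 and overlapped in 4T1R1 and 4T1R2. The response differed between 4T1R1 and 4T1 by log2FC 0.27 (SE 0.0808, adjusted p 0.0162), a call that was lost without treated 4T1 replicate 3 (adjusted p 0.0543).

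Gsdmd fell in both resistant populations and was not called in 4T1. In 4T1R1 it went from 29.6 to 32.9 CPM down to 25.0, 26.5 and 24.4 CPM (log2FC -0.29, SE 0.0676, adjusted p 0.000968), and in 4T1R2 from 21.5 to 26.5 CPM down to 19.3, 19.9 and 19.2 CPM (log2FC -0.28, SE 0.0711, adjusted p 0.00595). The 4T1R2 call was lost without untreated replicate 2 (adjusted p 0.0925). In 4T1 the treated values were 18.9 and 17.4 CPM and the log2FC was -0.08 (95% interval -0.24 to 0.09). The difference in response did not pass the threshold in either resistant population, at log2FC -0.22 (adjusted p 0.166) in 4T1R1 and -0.21 (adjusted p 0.195) in 4T1R2, so the fall was not shown to differ between populations.

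Pycard fell in 4T1 from between 3.73 and 4.06 CPM to 2.66 and 2.48 CPM (log2FC -0.61, SE 0.184, adjusted p 0.00764), and the call was lost without treated 4T1 replicate 3 (adjusted p 0.0624). In 4T1R1 the treated libraries held 4.92, 3.83 and 5.43 CPM and in 4T1R2 they held 4.04, 4.78 and 4.36 CPM, both overlapping the untreated libraries. The log2FC was -0.19 in 4T1R1 (95% interval -0.48 to 0.11) and -0.24 in 4T1R2 (95% interval -0.54 to 0.06). The sign of the fitted change was downward in all 3 populations.

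The 2 low cytokines gave no called response. Il1b held 0, 2 and 0 counts in treated 4T1, which leaves both 4T1 groups under the floor and allows no fold. It held 14, 13 and 15 counts in treated 4T1R1 and 16, 14 and 13 counts in treated 4T1R2, with log2FC values of -0.04 (95% interval -0.98 to 0.90) and -0.38 (95% interval -1.32 to 0.56). Il18 held 1.09 and 1.15 CPM in treated 4T1, 1.61, 1.26 and 1.14 CPM in treated 4T1R1 and 0.509, 0.587 and 0.399 CPM in treated 4T1R2. Its log2FC was 0.22 in 4T1 (95% interval -0.49 to 0.93), -0.02 in 4T1R1 (-0.62 to 0.58) and -0.72 in 4T1R2 (-1.46 to 0.01, adjusted p 0.229). At 13 to 68 counts per library, changes smaller than these intervals were not detectable.

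Other genes of the pathway were taken from 8 lists with 69 genes, of which 47 passed the filter on low counts. In untreated 4T1R1, 21 of 45 genes off the floor rose and 8 fell, against 25.2% and 27.5% of all genes tested. In untreated 4T1R2, 17 of 43 rose and 12 fell, against 25.6% and 26.9%. These shares are also the background of the counts of single lists given next, each of which holds few genes. The lists were chosen with results known and describe the pathway around the members. With 17-DMAG, 8 of 44 rose and 12 fell in 4T1 (3 and 19 when libraries were scaled by their totals alone), against 18.4% and 17.9% of all genes tested. The 8 became 5 without untreated 4T1 replicate 3 or treated 4T1 replicate 2, and the counts were 4 and 7 without treated 4T1 replicate 3. In 4T1R1, 5 of 47 rose and 10 fell, against 13.9% and 14.3%. In 4T1R2, 3 of 45 rose and 5 fell, against 6.18% and 4.35%, and the 5 became 3 without any single one of untreated replicates 1, 2 and 3 and treated replicates 1 and 2.

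The list with the highest median in untreated cells held guanylate-binding proteins, interferon-induced GTPases that help caspase-11 reach lipopolysaccharide, with a caspase-1 inhibitor. Of its 5 genes tested, 4 rose in 4T1R1 and 5 in 4T1R2, with none falling. Gbp2 went from 1.99 ± 0.192 CPM in 4T1 to 16.3 ± 0.642 CPM in 4T1R1 (log2FC 3.04) and 15.6 ± 1.72 CPM in 4T1R2 (log2FC 2.98; SD, n = 3). Gbp3 rose by log2FC 2.41 in each, and Gbp5 rose from 0.0460 ± 0.0797 CPM to 1.06 and 1.26 CPM. The base of Gbp5 lay near the floor, so its size of change is uncertain. Over the fits without 1 library, its log2FC ran from 3.90 to 8.06 in 4T1R1 and from 4.15 to 8.31 in 4T1R2. Between 4T1R2 and 4T1R1 the log2FC was -0.06 for Gbp2 (SE 0.0915, adjusted p 0.645) and -0.0026 for Gbp3 (SE 0.0898, adjusted p 0.986). Gbp7, named here after its values were seen, was lower in 4T1R2 than in 4T1R1 by log2FC -0.32 (SE 0.102, adjusted p 0.0114), the same direction as Casp1 and Casp4.

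Among inflammasome sensors and related genes, 4 of 9 genes rose and 1 fell in 4T1R1, and 2 of 8 rose and 1 fell in 4T1R2. Zbp1, a sensor of Z-form nucleic acids, rose from 0.672 ± 0.357 CPM to 2.77 ± 0.547 CPM in 4T1R1 (adjusted p 3.47e-08) and 2.46 ± 0.591 CPM in 4T1R2 (adjusted p 3.80e-07). Aim2, a sensor of cytosolic DNA, rose in 4T1R1 (log2FC 1.47, adjusted p 0.00139), and its value in 4T1R2 was 0.67 (adjusted p 0.183), which became 1.09 and passed the threshold without untreated 4T1R2 replicate 2 (adjusted p 0.0171). Nlrp10 rose in 4T1R2 (log2FC 1.35, adjusted p 0.00425) and had a log2FC of -0.30 in 4T1R1 (adjusted p 0.607). These 3 sensors had means below 3 CPM in every untreated population. Naip2, named here after its values were seen, rose from 2.37 ± 0.552 CPM to 5.75 ± 0.409 CPM in 4T1R1 (log2FC 1.27, adjusted p 1.55e-08). Its log2FC in 4T1R2 was 0.22 (adjusted p 0.331). The gene of this list that fell in each population was Nek7, by log2FC -0.09 in 4T1R1 and -0.14 in 4T1R2.

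Of the other caspases, 1 of 6 rose and 2 fell in 4T1R1, shares near those of all genes tested, and 3 of 6 fell in 4T1R2. Casp12, the next gene after Casp4 on chromosome 9 at a distance of 8647 bp, rose in 4T1R1 (log2FC 1.05, SE 0.131, adjusted p 6.00e-09), with a log2FC of -0.29 in 4T1R2 (adjusted p 0.0996). In 4T1R1 all 3 neighboring caspase genes were thus higher than in 4T1, and in 4T1R2 Casp1 and Casp4 were.

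Among the partners of caspase-8, Cflar, the gene of the caspase-8 inhibitor cFLIP, fell from 112 ± 1.29 CPM to 89.9 ± 0.816 CPM in 4T1R1 (log2FC -0.31) and 70.7 ± 1.76 CPM in 4T1R2 (log2FC -0.66). Xiap, an inhibitor of caspases, fell by log2FC -0.24 and -0.34. Ripk1, a kinase of death receptor complexes, rose in 4T1R1 (log2FC 0.29), with 0.01 in 4T1R2. In all, 1 of 5 rose and 2 fell in 4T1R1, and 3 of 5 fell in 4T1R2. Of the lytic effectors, Dfna5, the gene of gasdermin E, rose by log2FC 0.77 and 0.47, the second call being lost without untreated 4T1 replicate 1 (adjusted p 0.108). Mlkl, the effector of necroptosis, fell by log2FC -0.34 and -0.55. In that list 1 gene rose and 1 fell in each population, of 4 and 3 tested.

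Of 8 receptors of the family, 5 passed the filter on low counts. Il1rl2 was at 0 in every untreated library, Il1r2 was at 0 in untreated 4T1 with means of at most 0.0916 CPM in the resistant populations, and Il18r1, the ligand-binding subunit of the IL-18 receptor, had means of at most 0.0522 CPM in the untreated populations. Il18rap, the accessory subunit of that receptor, rose from 32.1 ± 1.37 CPM to 46.8 ± 1.67 CPM in 4T1R1 and 52.2 ± 2.85 CPM in 4T1R2. Sigirr, a negative regulator of the receptors, fell by log2FC -0.52 and -0.50. Il1r1, the receptor of IL-1α and IL-1β, fell in 4T1R2 (log2FC -0.38) and had a log2FC of -0.06 in 4T1R1 (adjusted p 0.514). Of 5 receptors, 2 rose and 1 fell in 4T1R1, and 2 rose and 2 fell in 4T1R2. Of the other IL-1 family ligands and antagonists, 2 of 8 could be tested, and Il33 rose in 4T1R1 (log2FC 0.89), with 0.08 in 4T1R2 (adjusted p 0.777). The antagonist gene Il1rn, named here after its values were seen, was at 0 in untreated 4T1 and was not tested against it. Its means were 0.522 ± 0.143 CPM in 4T1R1 and 0.123 ± 0.110 CPM in 4T1R2, lower in 4T1R2 by log2FC -1.95 (SE 0.683, adjusted p 0.0216).

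Among transcription factors with a known role at such genes, 7 of 9 rose in each resistant population (against 25.2% and 25.6% of all genes tested), with 1 falling in 4T1R1 and 2 in 4T1R2. Cebpb, a factor of the Il1b promoter in myeloid cells, rose from 49.5 ± 1.64 CPM to 124 ± 11.1 CPM in 4T1R1 and 112 ± 3.48 CPM in 4T1R2. Stat2, part of the type I interferon factor complex, rose by log2FC 0.69 and 0.94. Irf8 fell from 25.8 ± 1.14 CPM to 11.9 ± 0.233 CPM in 4T1R1 and 8.0 ± 0.87 CPM in 4T1R2. RNA levels do not show the activity of these factors.

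Likeness of pattern was measured as Pearson's r of log2(CPM + 1) over the 17 libraries and is given as a description. The libraries form 6 groups, and the genes compared share the scaling of each library. The genes most like Casp1 were Adgrf5 (r = 0.991), Igfbp7 (0.988) and Gbp9 (0.986), the last a guanylate-binding protein. Those most like Casp4 were Cpd (0.971) and AI607873 (0.966). The genes most like Il1a were Dlg5 (0.985), Bsg (0.984) and Samd4 (0.983), and those most like Gsdmd were Slc2a6 (0.940), Uba7 (0.939) and Baiap2 (0.938). For Il18 the highest was 0.877, with Trp53i11.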

How the data were processed

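RNA-seq counts of 24421 genes in 18 mouse libraries were analyzed. Per the labels, ribosomal RNA was removed and stranded libraries were sequenced. The authors aligned reads to mm10 with STAR and counted them per gene with featureCounts (Subread 1.6.2 and bcl2fastq 2.20 are named in the submitters' processing notes), and deposited the counts as whole numbers without normalization. The strand setting of the counting is not given in the sources used here. Even counts were 65.6% to 70.8% of counts from 1 to 12, so the mates of a pair were mostly counted separately, and this raises the apparent depth. Rn45s, a ribosomal RNA gene, took 9.54% to 15.6% of the counts.

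The 8 members and all lists were chosen with earlier results of these data known. Replicates 1 and 2 of 17-DMAG-treated 4T1 were averaged, as they differed by less than sampling noise. Counts were fitted with edgeR 4.0.16 in R 4.3.3 (filterByExpr, TMM, 6 group means, quasi-likelihood test, Benjamini-Hochberg adjustment over 13507 genes, threshold 0.05). Intervals are 95% intervals of the fit. A member with at most 3 counts in every library of a group was given as a bound. The fit was also run on counts simulated with known changes from the fit's own model. Such a run checks the code and not how well the model suits these libraries. CPM per kb used GENCODE vM21 exon lengths. All p-values measure the spread between these libraries, which may be partly technical.

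All 8 members were named. Other genes were named by list: at most the 3 with the largest change in either untreated resistant population, past the threshold and with at least 1 CPM in the higher group. Some genes that this rule picked are not reported here. For likeness, the 3 genes with the highest r and a mean of at least 1 CPM were taken, not all of which are printed. Alternatives were RLE scaling, total counts, no filter, a minimum of 10 counts, DESeq2 1.42.0, only the groups compared, 18 libraries, a replicate block, leaving out each library, leaving out Rn45s, and other transcript lengths, the RefSeq-paired length having been added after the data were seen. Plots used matplotlib 3.10.9 (Python 3.11.15).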

Additional observations from a re-analysis of the deposited data

Results flagged for a closer look

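3 results were picked out because the response to 17-DMAG differed between populations in a direct test (edgeR's quasi-likelihood test, adjusted over all genes tested). For Il1a, which encodes an alarm cytokine, the response was lower in 4T1R1 than in 4T1 by log2FC -2.10 (adjusted p 1.98e-05) and lower in 4T1R2 than in 4T1 by -1.49 (adjusted p 0.00134). Over the fits that left out each library in turn, the 2 values ran from -2.42 to -1.91 and from -1.82 to -1.31, and each stayed past the threshold. Untreated 4T1 held 7 to 15 counts of Il1a per library, so its response starts from a low level. For Casp8, the response was higher in 4T1R1 than in 4T1 by log2FC 0.27 (adjusted p 0.0162), and this call was lost without treated 4T1 replicate 3 (adjusted p 0.0543), a fit in which treated 4T1 is 1 sample assumed to vary like the other groups. No library was tested as an outlier, since no group had 4 or more samples.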

How the results depend on the processing

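The 28 called changes of single members kept their direction in all 744 refits that tested them and their call in 738, and the exceptions concern Pycard, Gsdmd and Casp8 and are named in the report. Requiring at least 10 counts in every library removed Casp4, Il1a and Il1b from the test by its construction, which left 3 members higher in untreated 4T1R2 against 4T1, 0 higher in 4T1R2 against 4T1R1, 0 higher with 17-DMAG in 4T1, 1 lower with 17-DMAG in 4T1R1, and 0 lower in either difference of responses. Scaling by total counts alone moved the median of all genes by -0.11 for 17-DMAG in 4T1 and by 0.15 for the difference of responses between 4T1R1 and 4T1, raised the genes called in that difference from 2464 to 3955, and called 1 member higher in the difference between 4T1R2 and 4T1, which was Casp8 (log2FC 0.26, adjusted p 0.0193). Over the fits without 1 library each, the count of members ran from 0 to 1 for those lower with 17-DMAG in 4T1R2, and also for those higher in each of the 2 differences of response. Genes called ran from 929 to 1624 for 17-DMAG in 4T1R2 (the lowest without treated replicate 1), from 1585 to 2529 for the difference between 4T1R1 and 4T1 and from 1565 to 2646 for that between 4T1R2 and 4T1 (both lowest without treated 4T1 replicate 3, which leaves that group with 1 sample assumed to vary like the others).

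Changes of sign occurred for values that were not called. The log2FC of Casp1 with 17-DMAG in 4T1, 0.0047, became -0.00018 with RLE scaling, -0.11 with total counts, -0.0038 with the minimum of 10 counts, -0.0046 with DESeq2 and -0.017 with 18 separate libraries, and it ran from -0.065 to 0.13 without 1 library. With total counts, the response in 4T1R1 became 0.0067 for Casp8 and 0.012 for Il18. Without 1 library each, values crossed 0 for Il18 (-0.49 to 0.051) in 4T1R2 against 4T1, for Pycard (-0.18 to 0.10) and Il1b (-0.091 to 0.56) in 4T1R2 against 4T1R1, for Il18 (-0.12 to 0.39) with 17-DMAG in 4T1, and for Casp8 (-0.054 to 0.025), Il1b (-0.19 to 0.33) and Il18 (-0.23 to 0.15) with 17-DMAG in 4T1R1. They did so also for Casp1 (-0.069 to 0.17) and Il18 (-0.46 to 0.099) in the difference between 4T1R1 and 4T1, for Casp1 (-0.054 to 0.14) in that between 4T1R2 and 4T1, and for Ripk1 (-0.016 to 0.021) and Il33 (-0.080 to 0.21) in 4T1R2 against 4T1. The cause was not tested.

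The replicate numbers did not pair the libraries: over 45 same-number pairs, deviations from the group means correlated between -0.052 and 0.050, and 6 of 18 libraries were closest to their own number. With a replicate block on 18 libraries, the log2FC of Casp1 with 17-DMAG in 4T1 was -0.0018, and no call of a member changed.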
